A study of Mus musculus with 6 samples.

Results

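Classical non-homologous end joining is the repair route that seals DNA breaks made during V(D)J recombination. The Ku heterodimer, encoded by Xrcc5 and Xrcc6, binds broken ends and recruits the DNA-dependent protein kinase catalytic subunit, encoded by Prkdc. The nuclease Artemis, encoded by Dclre1c, opens the hairpins that the RAG recombinase leaves on coding ends, the X-family polymerases encoded by Polm and Poll fill gaps, and DNA ligase IV, encoded by Lig4, seals the ends with its partner XRCC4. Nhej1 encodes XLF, a structural relative of XRCC4 that helps to align ends, and Aplf encodes a factor that binds XRCC4 and Ku. In pre-B cells this machinery joins immunoglobulin light chain segments.

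These 10 genes were chosen by name, and each probe set that the platform annotation assigns to a single one of them was read. Of the 10, 9 had a probe set in the table, with 1 probe set each, and all 9 passed the filter on dim probe sets, so that they stand among 11271 genes tested. Expression of Dclre1c was not analysed here, and only the sequence at its start was searched.

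RNA came from pre-B cells sorted from mouse bone marrow as B220+ IgM- CD43- cells at 9 months of age, and was hybridised to Affymetrix GeneChip mouse expression arrays. There were 3 control arrays and 3 arrays of Vav-Cre Mef2cfl/fl mice, here called Mef2c-deficient. Vav-Cre acts throughout blood cells, so that Mef2c, a MADS box transcription factor gene, is deleted before the B lineage forms. The labels name the controls only as control, and the methods allow floxed mice without Cre or heterozygous mice with Vav-Cre, so that some controls may carry a deleted allele. The samples are described as independent without naming animals, so p-values measure the spread between these samples, and 3 arrays a group limit the precision. Values below are log2 of the deposited intensities, and a difference is Mef2c-deficient minus control. The base that took the authors' log values to the deposited scale is not settled. With a base of e, every difference shrinks to 0.69 times what is printed, and its direction and p-value stay. In bulk RNA fewer cells of a type and less RNA per cell cannot be told apart.

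The arrays differed in ways that go beyond end joining, and the part of each in the results was not tested. The median difference of all genes tested was -0.36, but its sign depended on the filter, and with no filter it was 0.07 over 17372 genes. Medians of the deposited values over all probe sets were 236 to 268 in controls and 277 to 285 in Mef2c-deficient arrays. The bioB hybridisation spike, a bacterial transcript read by 6 probe sets, averaged 14.26 to 14.58 (log2) over the controls and 15.50 to 17.06 over the Mef2c-deficient arrays. Of 15 cell division markers 14 were tested, and their median deviation from the control mean was -1.37, -2.19 and -1.20 in Mef2c-deficient replicates 1 to 3. Means were lower for 13 of them, where 62.3% of all genes tested had lower means. Top2a went the other way, with a difference of 1.54 from a dim probe set (control mean 7.23). Of 10 plasmacytoid dendritic cell markers 7 were tested, and their summed log2 level was 15.24 to 16.93 in controls and 16.16 to 19.89 in Mef2c-deficient arrays. Their medians relative to the control mean were 0.51, 1.11 and 3.39 in the Mef2c-deficient arrays and 0.75 in control replicate 3. The summed level of 7 neutrophil markers was 15.05 to 17.39 in controls and 15.48 to 20.27 in Mef2c-deficient arrays. That of 5 monocyte and macrophage markers was 12.39 to 14.59 and 12.14 to 17.49, and that of 4 T and NK cell markers 9.02 to 9.80 and 9.50 to 11.92. Mef2c-deficient replicate 3 was the highest array for each of the 6 neutrophil, 3 monocyte and macrophage, and 2 T and NK cell markers tested. Mature B-cell markers, 5 in number, summed to 17.72 to 18.66 in controls and to 17.78 to 19.18 in Mef2c-deficient arrays. H2-Ab1 (control mean 17.96) was the brightest of them. Ciita (-0.89) and Fcer2a (-1.59) had lower means, and Ms4a1 (1.56), Cr2 (1.0) and H2-Ab1 (0.23) higher ones. The 5 plasma cell markers summed to 17.84 to 18.23 and to 16.64 to 17.56, which in controls was mainly Irf4 (control mean 17.63). They did not move alike. Irf4 (-1.32), Sdc1 (-2.36) and Prdm1 (-0.18) had lower means, and Xbp1 (0.78) and Jchain (0.46) higher ones. The 2 erythroid markers summed to 7.33 to 7.92 in controls and to 7.88 to 8.72 in Mef2c-deficient arrays. Markers of pre-B cells, 8 of 9 in the table, summed to 20.97 to 21.31 and to 20.38 to 21.12. These sums are set by the brightest genes, Cd79a, Cd79b and Cd24a, which the whole B lineage expresses. Means were lower for 7 of the 8 pre-B markers, where 62.3% of all genes tested had lower means. The groups did not overlap for 3, the interleukin-7 receptor gene Il7r (-1.09), Rag1 (-1.18) and Cd24a (-0.48), against 27.1% of all genes that were lower in this way. Igll1, which encodes a surrogate light chain component, lay at 14.14 to 15.82 in controls and 12.84 to 15.38 in Mef2c-deficient arrays. Mef2c was not analysed here.

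**Figure D1:**
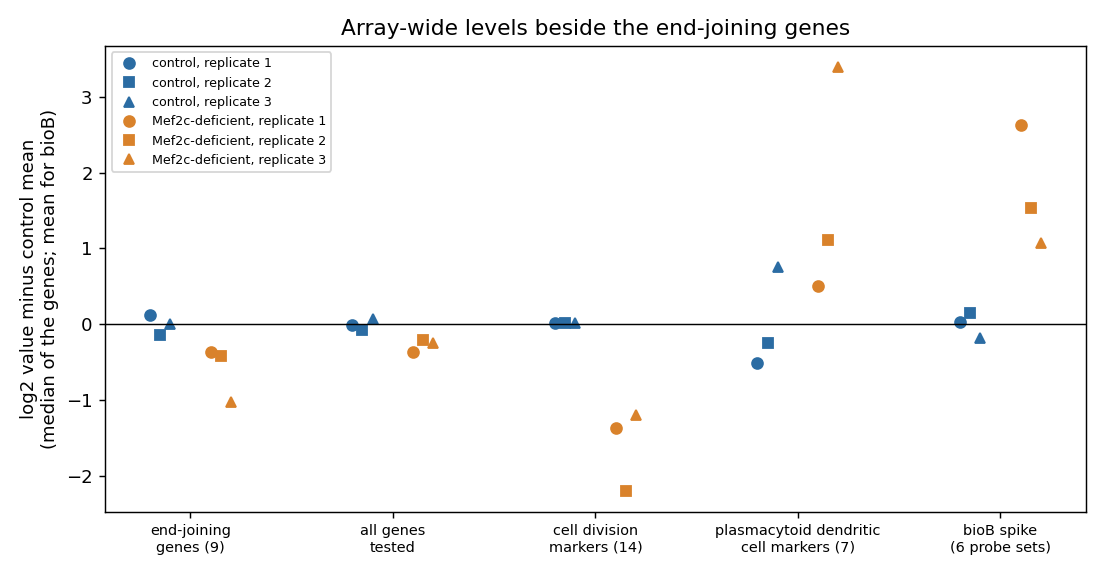
Level of 5 measures in each array as log2 minus the control mean (vertical axis). Blue marks 3 controls, orange 3 Mef2c-deficient arrays, and the symbol gives the replicate number. Points are medians over genes, or the mean over 6 probe sets for the bioB spike. The end-joining genes read -0.36, -0.41 and -1.02 in Mef2c-deficient replicates 1 to 3, beside -0.37, -0.21 and -0.24 for all genes tested.

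The first question was whether end-joining genes were lower in Mef2c-deficient pre-B cells. All 9 measured genes had lower means in Mef2c-deficient cells as deposited, where 62.3% of all genes tested did (Poll turned to 0.22 when each array was centred on its median). The largest differences were those of Lig4, Xrcc4, Xrcc6 and Aplf, at -1.51 to -0.94, while Poll differed by -0.08. With limma 0 of the 9 passed an adjusted p of 0.05, which 0.0177% of all genes did, and their adjusted p lay between 0.133 and 0.898. At an unadjusted p under 0.05, 4 of 9 genes (44.4%) were lower against 20.9% of all genes, and 0 were higher against 5.32%. The same 4 genes passed with the replicate number as a block. That count was 0 without control replicate 1, 1 without control replicate 2, and 2 without control replicate 3 or Mef2c-deficient replicate 2 or 3. Without Mef2c-deficient replicate 1 it was 4, with Polm in place of Aplf. Xrcc4, Xrcc6, Nhej1 and Aplf had groups that did not overlap, again 44.4%, against 27.1% of all genes that were lower in this way and 10.6% that were higher.

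The median difference of the 9 genes was -0.77, and -0.41 once the all-gene median was taken off. It was -0.42 after quantile normalization of the log2 values and -0.27 after cyclic loess, or -0.31 and -0.22 relative to all genes. The 4 genes at an unadjusted p under 0.05 became Xrcc4 and Xrcc6 after quantile normalization, where 11.1% of all genes were lower at that threshold. After cyclic loess, or with each array centred on its median, Xrcc4 was the only such gene of the 9, against 10.2% and 10.7% of all genes. All 9 of the 95% intervals included -0.36, the all-gene median under the filter used. That median was 0.07 with no filter and -0.54 with the 60th percentile filter. The intervals of Lig4, Xrcc4, Xrcc6 and Aplf lay below 0. Xrcc4, Xrcc6 and Lig4 were singled out by the study on these same arrays, so that their direction here is not independent evidence. The study also reported lower levels of these genes by Q-PCR in pre-B cells, which was not re-analysed here.

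**Figure D2:**
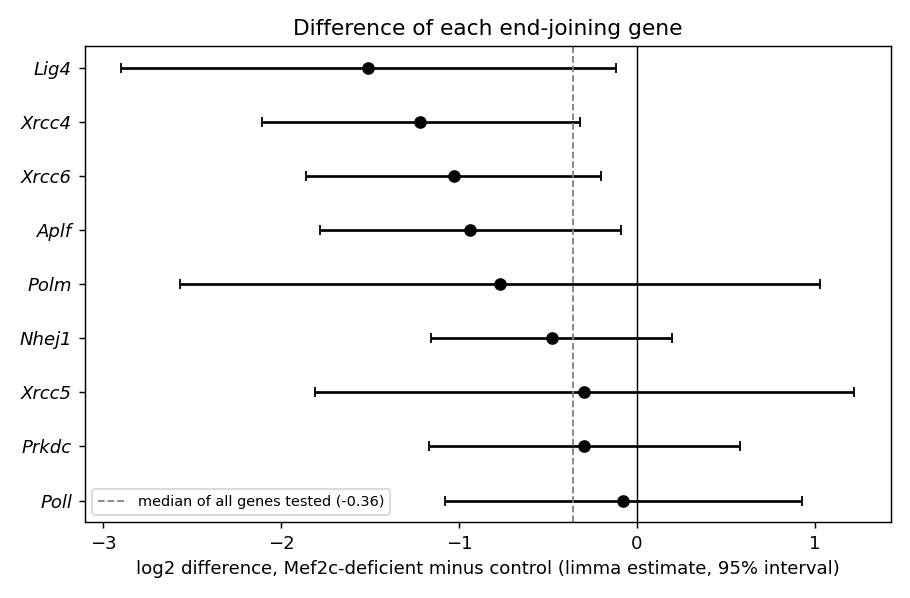
Log2 difference between Mef2c-deficient and control arrays (horizontal axis) of each end-joining gene, as estimated by limma from 3 arrays a group, with its 95% interval. The intervals of Lig4, Xrcc4, Xrcc6 and Aplf lay below 0, and all 9 intervals included -0.36, the median of all genes tested (dashed). With no filter on dim probe sets that median was 0.07.

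Ku genes open the pathway. Xrcc6, which encodes Ku70, had log2 values of 16.80, 16.62 and 16.60 in control replicates 1 to 3, and of 16.32, 15.33 and 15.28 in Mef2c-deficient replicates 1 to 3. Every Mef2c-deficient array lay below every control, with replicate 1 the closest to them. The means were 16.67 ± 0.11 and 15.64 ± 0.58 (SD, n = 3 each), a difference of -1.03 (SE 0.35, 95% interval -1.86 to -0.20, limma adjusted p = 0.144). As deposited this is 2.04-fold lower, and 1.64-fold if the base was e.

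Xrcc5, which encodes Ku80, had control values of 9.67, 9.97 and 10.12. Its Mef2c-deficient values were 8.27, 11.07 and 9.53. Replicate 2 lay above all controls, and replicates 1 and 3 lay below them. The difference was -0.30 (SE 0.65, 95% interval -1.81 to 1.22, limma adjusted p = 0.739), and without Mef2c-deficient replicate 1 it turned to 0.38. Without Mef2c-deficient replicate 2 it was -1.02 (limma adjusted p = 0.203).

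Prkdc acts next, since its kinase subunit is recruited by Ku. It had control values of 10, 10.15 and 10.21 and Mef2c-deficient values of 10.03, 10.34 and 9.10. Replicate 1 lay within the control range, replicate 2 above it and replicate 3 well below it. The difference was -0.30 (SE 0.37, 95% interval -1.17 to 0.58, limma adjusted p = 0.575), which became 0.07 without Mef2c-deficient replicate 3. That array had dendritic cell markers at a median 3.39 above the control mean, and was also the highest for each neutrophil, monocyte and T-cell marker tested. Their part in the result was not tested.

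Of the 9 genes, Polm had the largest spread among the Mef2c-deficient arrays. Polm, which encodes DNA polymerase mu, had control values of 14.95, 14.54 and 14.65. Its Mef2c-deficient values were 15.62, 14.02 and 12.20. The span of these 3 arrays took in all 3 controls. The SD was 0.21 in controls and 1.71 in Mef2c-deficient arrays, 8.04 times as large. The difference of -0.77 (SE 0.77, 95% interval -2.57 to 1.03, limma adjusted p = 0.488) turned to 0.11 without Mef2c-deficient replicate 3. Without Mef2c-deficient replicate 1 it was -1.61 (limma adjusted p = 0.174), which passed the unadjusted threshold of 0.05.

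Poll, which encodes DNA polymerase lambda, had control values of 8.76, 8.74 and 9.14 and Mef2c-deficient values of 8.21, 8.49 and 9.71. Here replicate 3, which was lowest for Polm, was the highest array of all. The difference was -0.08 (SE 0.43, 95% interval -1.08 to 0.93, limma adjusted p = 0.898), and its sign changed without Mef2c-deficient replicate 1 (0.22), Mef2c-deficient replicate 2 (0.08) or control replicate 3 (0.06).

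At the ligation step, Lig4 and Xrcc4 had the largest negative differences of the 9. Lig4 had control values of 13.84, 13.69 and 14.12 and Mef2c-deficient values of 13.77, 11.30 and 12.06. Mef2c-deficient replicate 1 lay within the control range, and replicates 2 and 3 lay well below it. The means were 13.88 ± 0.22 and 12.38 ± 1.26 (SD, n = 3 each), a difference of -1.51 (SE 0.60, 95% interval -2.90 to -0.12, limma adjusted p = 0.171). This is 2.84-fold lower as deposited and 2.06-fold if the base was e. A lower difference was found in 5.38% of all genes tested. Without Mef2c-deficient replicate 1 the difference was -2.20, and without replicate 2 it was -0.97.

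Xrcc4, whose product holds ligase IV in a complex, had control values of 9.51, 8.65 and 9.09. Its Mef2c-deficient values were 7.51, 7.61 and 8.49. The groups did not overlap, although Mef2c-deficient replicate 3 lay close to control replicate 2. The signal was dim, and the filter on mean log2 stood at 7.26. Deposited values in Mef2c-deficient replicates 1 to 3 were 182, 195 and 359, where the medians of those arrays were 281, 285 and 277. The means were 9.09 ± 0.43 and 7.87 ± 0.54 (SD, n = 3 each), a difference of -1.22 (SE 0.38, 95% interval -2.11 to -0.32, limma adjusted p = 0.133), or 2.33-fold lower as deposited. With array weights the limma adjusted p was 0.0357, the only pass among the 9 genes, in a fit that called 1154 of 11271 genes. Over the alternatives run it lay between 0.0357 and 0.351, with negative differences throughout. Its probe set is of the _s_at type, which can match more than 1 transcript family.

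Nhej1, read by a probe set of the same type, had control values of 11.04, 10.74 and 10.52 and Mef2c-deficient values of 10.48, 10.36 and 10.02. The groups did not overlap, by a margin far smaller than the spread within each. The difference was -0.48 (SE 0.29, 95% interval -1.16 to 0.20, limma adjusted p = 0.291). It was -0.12 once the all-gene median was taken off, and -0.13 after quantile normalization.

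Aplf had control values of 11.47, 10.93 and 11.03 and Mef2c-deficient values of 9.87, 10.84 and 9.91. All 3 Mef2c-deficient arrays lay below the controls, with replicate 2 close to them. The difference was -0.94 (SE 0.36, 95% interval -1.78 to -0.09, limma adjusted p = 0.166), which is 1.92-fold lower as deposited. It was -0.58 after quantile normalization and -0.53 after cyclic loess.

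**Figure D3:**
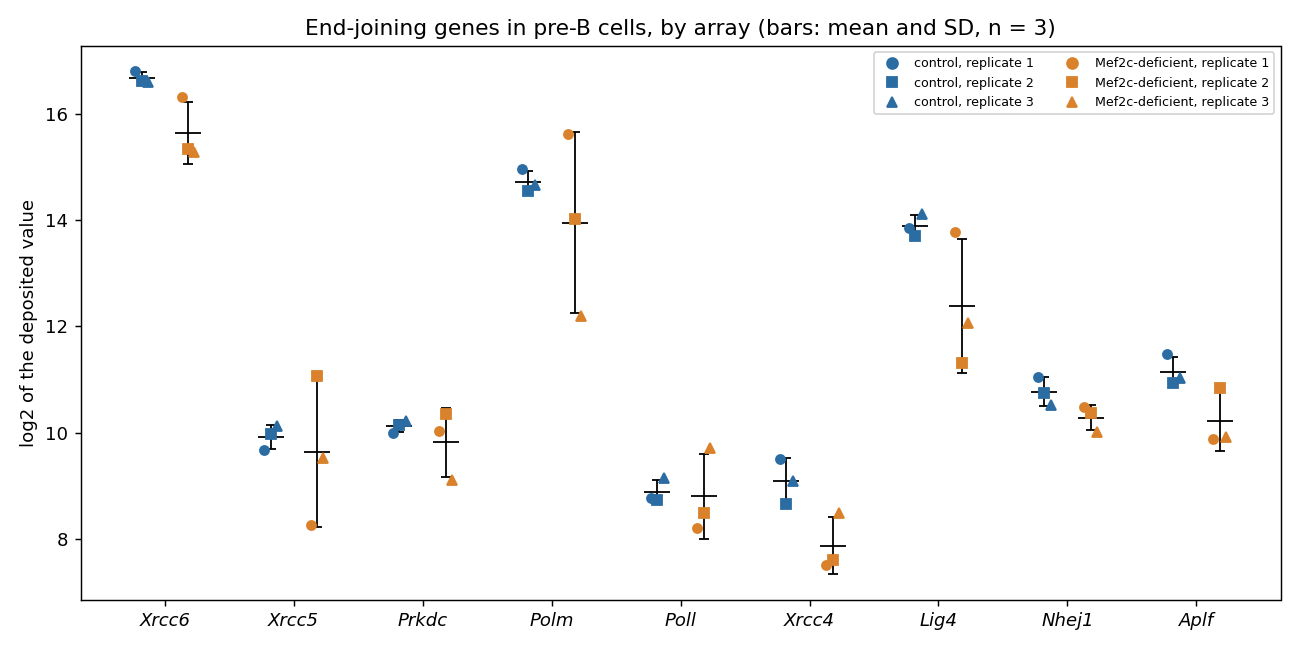
The 9 measured end-joining genes as log2 deposited intensity (vertical axis), with 3 controls in blue, 3 Mef2c-deficient arrays in orange, symbols for replicate numbers and bars for the mean and SD. Levels are to be compared within a gene. Xrcc6, Xrcc4, Nhej1 and Aplf have groups that do not overlap, and Polm spans 12.20 to 15.62 in the Mef2c-deficient arrays.

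The 9 genes did not shift alike. In Mef2c-deficient replicate 1, 6 genes lay below the lowest control and 1 above the highest, in replicate 2 these were 7 and 2, and in replicate 3 they were 8 and 1. The share of all genes outside the control range was not counted by array, so these counts are not a trait of the end-joining genes. Medians over the 9 genes relative to the control mean were -0.36, -0.41 and -1.02, while all genes tested had -0.37, -0.21 and -0.24. The SD among Mef2c-deficient arrays exceeded that among controls in 8 of 9 genes, and in 71.7% of all genes tested. Median SDs were 0.23 and 0.65 for the end-joining genes, and 0.30 and 0.51 for all genes. Nhej1 was the exception, with SDs of 0.27 in controls and 0.24 in Mef2c-deficient arrays.

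Same-numbered arrays deviated together only weakly from their group means (r across genes 0.226 to 0.373), and the labels do not pair them. They were read as pairs here. Within them, Xrcc4, Xrcc6, Lig4, Nhej1 and Aplf were lower in all 3. This makes 5 of 9 genes, against 39.8% of all genes tested. Lig4 differed by -0.08, -2.39 and -2.06 in pairs 1 to 3, and Xrcc4 by -2.01, -1.04 and -0.61. The pair that held the smallest difference was thus not the same for the ligase and its partner. Aplf differed by -1.60, -0.09 and -1.12, and Xrcc6 by -0.48, -1.29 and -1.32. Nhej1 was the most even, at -0.57, -0.38 and -0.50.

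Proteins that act in pairs were compared through the ratio of their genes within each array, which a constant scaling of an array cannot change. Of 4 such pairs set out, 3 could be measured. The smallest p that an exact permutation test of 3 against 3 arrays can give is 0.1, so this design cannot reach 0.05. Relative to the control mean, the log2 ratio of Xrcc5 to Xrcc6 was -1.29, 2.49 and 1.0 in Mef2c-deficient replicates 1 to 3, while controls lay between -0.37 and 0.27. The mean of 0.73 (SE 1.12) had an exact two-sided permutation p of 0.7. The ratio of Xrcc4 to Lig4 was -1.46, 1.11 and 1.22, with a mean of 0.29 (SE 0.91, exact permutation p = 0.8). That of Polm to Poll was 1.57, -0.31 and -3.35, with a mean of -0.69 (SE 1.45, exact permutation p = 0.8). All 3 had a Benjamini-Hochberg adjusted p of 0.8 over the 3 pairs. In each pair the Mef2c-deficient arrays lay on both sides of the control mean. Each SE was larger than its mean, so that neither equal nor unequal change was shown.

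**Figure D4:**
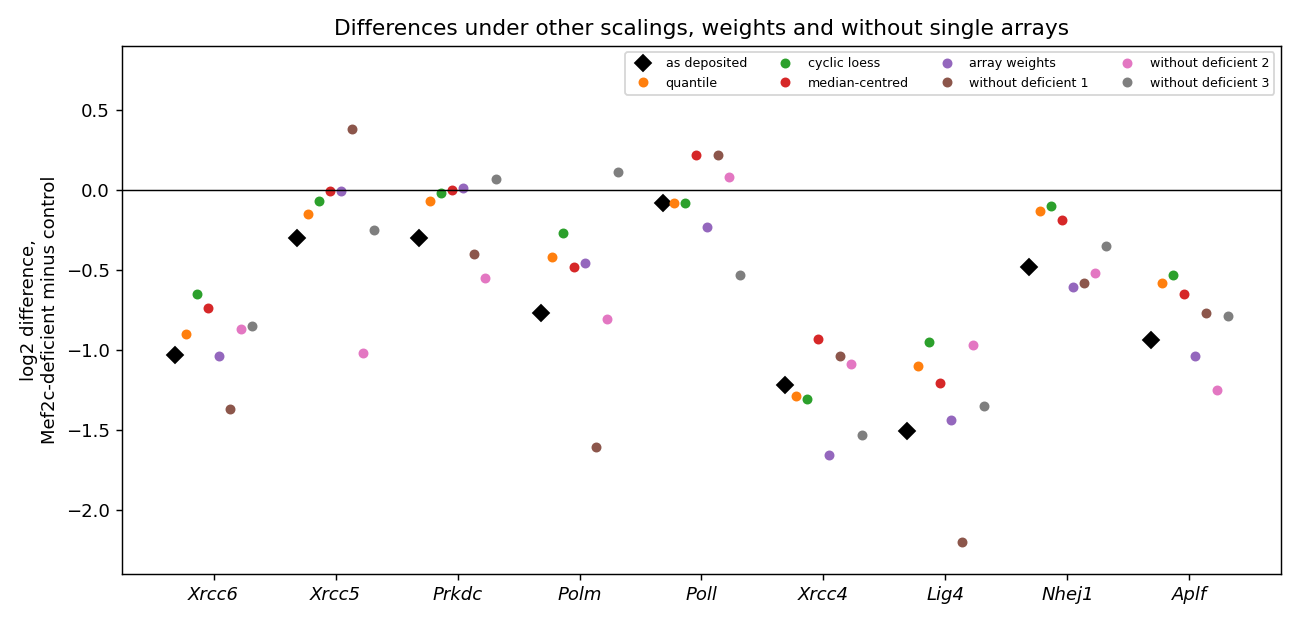
Log2 difference between Mef2c-deficient and control arrays (vertical axis) of each end-joining gene as deposited (black diamonds) and under 3 scalings, with array weights and without each Mef2c-deficient array. Xrcc6, Xrcc4, Lig4, Nhej1 and Aplf stay below 0 under all 8 settings drawn. Xrcc5, Prkdc, Polm and Poll cross 0.

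The starts of some of these genes lie beside the start of another gene. In the RefSeq table of gene starts for build GRCm38.p6, 8 of the 10 genes had an entry. For Lig4, Xrcc4 and Xrcc6 another gene starts on the opposite strand within 200 bases upstream, an arrangement found for 7.77% of 27025 genes in that table. The bases between the starts are shown because they are the stretch that each gene shares with its neighbour. They are written 5′ to 3′ on the strand of the end-joining gene, with capitals for a motif described after them.

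Lig4 and Abhd13, chr8:9977681-9977716, minus strand: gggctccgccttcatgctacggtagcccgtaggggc

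Xrcc4 and Tmem167, chr13:90089609-90089666, minus strand: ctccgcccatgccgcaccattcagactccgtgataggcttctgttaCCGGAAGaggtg

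Xrcc6 and Desi1, chr15:82016221-82016368, plus strand: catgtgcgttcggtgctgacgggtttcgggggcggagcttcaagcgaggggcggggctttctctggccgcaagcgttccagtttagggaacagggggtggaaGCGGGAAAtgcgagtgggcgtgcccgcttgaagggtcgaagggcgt

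The starts lie 37, 59 and 149 bases apart, and these stretches are 69.4%, 58.6% and 64.9% G or C. Motifs were searched on both strands, in these stretches and in windows from 250 bases before to 50 after each start. An ETS motif, CCGGAAG, lies between Xrcc4 and Tmem167. A form of the E2F motif, TTTCCCGC read on the other strand, lies between Xrcc6 and Desi1. A match is a description of letters and not of binding.

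Of the 9 windows of the 8 genes, Lig4 having 2, CTANNNNTAG was in 1, that of Dclre1c, and in 3.69% of all 32851 windows. This string is a loose form of the MEF2 motif, with any base at each N, and other forms were not searched. The paper lists Xrcc4 and Lig4 among candidate direct targets bound by MEF2C in a mouse B-cell progenitor line. Binding was not re-analysed here, and a window without the string does not speak to it. CCGGAAG was in 4 windows, those of Xrcc4, Dclre1c and both of Lig4, against 8.86% of all windows. TTTCCCGC was in that of Xrcc6 (1.07% of all windows), and a second E2F form, TTTGGCGC, in 0 (0.514%). The NRF1 motif GCGCNTGCGC was in both windows of Lig4 (4.6%). The E-box CAGCTG was in both windows of Lig4 and in those of Dclre1c and Polm (16.3%). CCAAT was in those of Xrcc5, Xrcc6, Dclre1c, Polm and Aplf (37.4%). The window of Nhej1 held none of these 7 motifs.

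All 3 neighbours were measured. Desi1, which encodes a desumoylating isopeptidase, had control values of 13.87, 14.18 and 14.59 and Mef2c-deficient values of 13.10, 11.57 and 12.26, a difference of -1.90 (SE 0.44, limma adjusted p = 0.095). Abhd13, which encodes a predicted hydrolase, had control values of 11.72, 11.52 and 12.48. Its Mef2c-deficient values were 11.17, 10.80 and 10.76, a difference of -1.0 (SE 0.34, limma adjusted p = 0.144). Tmem167, which encodes a small membrane protein of the secretory pathway, had control values of 9.71, 9.71 and 10.44. Its Mef2c-deficient values were 6.60, 9.63 and 8.88, a difference of -1.59 (SE 0.73, limma adjusted p = 0.208). In all 3 the groups did not overlap, with 27.1% of all genes lower in this way, and 0 passed the adjusted threshold. These genes were picked for their position after the values of the end-joining genes were known. Array by array, neighbours were alike in some cases only. For Xrcc6 and Desi1, Mef2c-deficient replicate 1 lay nearest to the controls in both. That array was at control level for Lig4 and below it for Abhd13, and it was far lower than the other arrays for Tmem167 but not for Xrcc4.

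**Figure D5:**
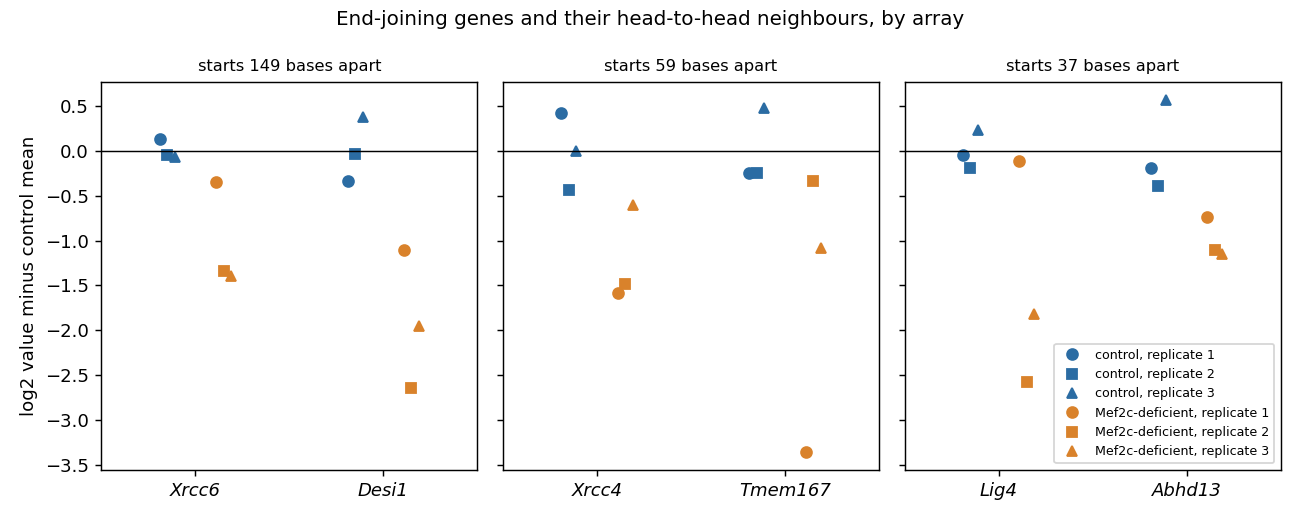
Log2 value minus the control mean (vertical axis) of Xrcc6, Xrcc4 and Lig4 and of the gene that starts next to each on the opposite strand, with 3 controls in blue, 3 Mef2c-deficient arrays in orange and symbols for replicate numbers. All Mef2c-deficient points of Desi1, Tmem167 and Abhd13 lie below their controls, with differences of -1.90, -1.59 and -1.0.

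Other genes that act before, beside or in place of classical end joining were read from the same fit. Of 33 genes in 4 lists, 27 were tested and 26 had lower means, where 62.3% of all genes did. At an unadjusted p under 0.05, 14 (51.9%) were lower, against 20.9% of all genes. The same 2 shares stand beside the counts of each list below. All these counts are as deposited. After quantile normalization, cyclic loess or centring the all-gene share was 11.1%, 10.2% or 10.7%, and the lists were not counted there. With limma 0 of the 27 passed an adjusted p of 0.05.

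Genes that make the breaks and add bases to junctions came first. Means were lower for each of the 4 tested, the median difference was -1.29, and 2 were lower at an unadjusted p under 0.05. Those were the recombinase genes Rag1, at -1.18 (SE 0.45), and Rag2, at -1.40 (SE 0.55). Hmgb2, which encodes a DNA-bending cofactor, differed by -0.78 (SE 0.35). Dntt, which encodes terminal transferase, a relative of polymerases mu and lambda, ranged from 13.50 to 15.15 in controls and from 11.06 to 15.46 in Mef2c-deficient arrays. Its highest value, like that of Poll, was in Mef2c-deficient replicate 3.

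Among genes that sense breaks or favour end joining 13 were tested, 12 had lower means and 6 were lower at an unadjusted p under 0.05, with a median of -0.89. Rad50, of the end-tethering MRN complex, differed by -1.63 (SE 0.34), Paxip1, a partner of 53BP1, by -2.29 (SE 0.48), and Rif1, which limits resection, by -1.86 (SE 0.42). Their limma adjusted p lay between 0.0933 and 0.095. Rif1, which is among the 6, was dim, with a control mean of 8.79 and a Mef2c-deficient mean of 6.93. Its Mef2c-deficient values were 7.08, 6.09 and 7.61, where the filter on mean log2 stood at 7.26. The size of its difference is thus less certain. Atp23, first named as a Ku70-binding gene, was the exception to the lower means, with a difference of 0.43 (SE 0.41).

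End-processing accessory genes had a median of -0.88, with 4 tested, 4 lower in mean and 3 lower at an unadjusted p under 0.05. Tdp1 and Tdp2, which encode phosphodiesterases that free ends from trapped topoisomerases, differed by -1.36 (SE 0.42) and -1.04 (SE 0.37), and Aptx, whose product removes adenylate left by failed ligation, by -0.73 (SE 0.31).

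Genes of alternative end joining, the route used where the classical one is lost, had a median of -0.92. All 6 tested had lower means and 3 were lower at an unadjusted p under 0.05. Parp1, the break-sensing polymerase, differed by -1.03 (SE 0.31), Xrcc1, a scaffold for ligase III, by -0.92 (SE 0.30), and the flap nuclease gene Fen1 by -1.28 (SE 0.48). Polq, which encodes the polymerase typical of this route, had means of 9.45 and 9.23, a difference of -0.22 (SE 0.35, limma adjusted p = 0.65).

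Many genes lay close to the mean profile of the end-joining genes, although these 9 did not move alike. Over the 6 arrays, which share the split by genotype, Pearson's r with the mean profile of the 9 genes was highest for Mettl3, Atp5b, Rbm24, Hivep1 and Mrpl45, at 0.994 to 0.997, and 997 genes had r above 0.9. Within the list, r with the mean of the other end-joining genes was 0.865 for Xrcc6 and 0.854 for Nhej1, but -0.118 for Xrcc5 and -0.349 for Poll.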

How the data were processed

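The authors deposited an intensity for each of 23913 probe sets on a linear scale. Per their methods the values came from RMA (background adjustment, quantile normalization and probe summary), with limma for differential expression and a filter on detection calls. The sources used here give no tool versions. The base of the scale is not stated: the highest value, 2144602, has a log2 of 21.03 and a natural log of 14.58, and a 16-bit scanner counts to 65535.

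The values were log2-transformed with no offset. Of 18214 probe sets in the platform annotation, which can be old, 17690 had 1 symbol and were used. Of these, 17538 matched RefSeq by gene identifier, and 0 symbols changed. Probe sets with a mean log2 above the 40th percentile (7.26) were kept, and the one with the highest mean stood for its gene. The 25 control probe sets were left out. The fit was limma 3.58.1 in R 4.3.3 on 6 arrays with group as the only term, two-sided, with Benjamini-Hochberg adjustment over 11271 genes. It was tested on simulated data with equal spread in both groups and larger changes than those of the end-joining genes. That setting is easier than these data, so it does not vouch for the fit here. Members, gene lists and tests were chosen with earlier results of these data known, and within each list the 3 genes of smallest p were named, with Dntt, Atp23, Polq, Igll1 and some pre-B markers added after their values were seen.

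Same-numbered arrays deviated together from their group means (r across genes 0.348, 0.226 and 0.373, against -0.309 to 0.129 for other numbers). What a number stands for is not in the labels. Expression of Mef2c, Dclre1c and some list members was not analysed here.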

Additional observations from a re-analysis of the deposited data

How the results depend on the processing

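Of the 9 genes, 0 passed an adjusted p of 0.05 with limma or with the methods' t-test under the alternatives run, save 1 (Xrcc4, 0.0357) with array weights. The count lower at an unadjusted p under 0.05, 4 as deposited, was 2 after quantile normalization and with the methods' t-test, and 1 after cyclic loess, with each array centred on its median, and with both arrays of replicate number 3 left out, an alternative chosen after seeing the data. Leaving out 1 array gave 0 to 4: 0 without control replicate 1, 1 without control replicate 2, 2 without control replicate 3, 2 without Mef2c-deficient replicate 2 or 3, and 4 without Mef2c-deficient replicate 1, where Polm entered and Aplf left. The 60th percentile filter removed Xrcc4 and Poll. A replicate block left the count at 4 and changed no call.

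The median difference, -0.77, was -0.27 after cyclic loess and lay between -0.87 and -0.53 without single arrays, and relative to all genes it was -0.84 with no filter. Signs turned for Poll (0.22 with centred arrays, -0.53 to 0.22 without single arrays) and Prkdc (0.01 with array weights, 0.11 without both arrays of number 3, -0.55 to 0.07 without single arrays). They also turned for Polm (0.07 without both arrays of number 3, -1.61 to 0.11 without single arrays) and Xrcc5 (-1.02 to 0.38). The mean log2 ratio of Xrcc4 to Lig4 was -0.20 after quantile normalization and -0.36 after cyclic loess. Without single arrays it lay between -0.18 and 1.16, that of Xrcc5 to Xrcc6 between -0.15 and 1.75, and that of Polm to Poll between -1.83 and 0.63. The cause of these changes was not tested. Mef2c-deficient replicate 3 had the highest dendritic cell, neutrophil, monocyte and T-cell markers.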
